A study of Rattus norvegicus with 10 samples.

Results

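The miR-99/100 and miR-125 families were examined on miRNA arrays of the rat left ventricle. The members were the 5 miRNAs named rno-miR-99a-5p, rno-miR-99b-5p, rno-miR-100-5p, rno-miR-125a-5p and rno-miR-125b-5p in the scanner files, matched by their miRBase identifier to the series value table, and they were 5 of the 761 miRNAs that the array carried. The rule that picks them uses their names and no measured value. RNA came from male Wistar rats weighing 250 to 350 g. In the DEX group, dexmedetomidine (DEX), a sedative agonist of alpha2 adrenergic receptors, was infused for 30 min through a tail vein as a loading and then a maintenance dose and was followed by a short saline washout. In the control group, saline was infused in the same way. Each group held 5 rats with 1 array per rat, and the RNA was taken from the anterior wall of the left ventricle. The methods describe sevoflurane and butorphanol anaesthesia for the ischaemia experiments of the same study and do not restate it for the rats on these arrays. The comparison asked which miRNAs had changed in the heart shortly after the infusion, before any ischaemia.

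MiRNAs are short RNAs that guide silencing complexes to messenger RNAs, mainly through pairing of the seed, bases 2 to 8 of the mature strand. The miR-99/100 and miR-125 families are conserved across animals and lie, with a let-7 miRNA between or beside them, in 3 paralogous clusters, each of which can be transcribed as 1 long primary RNA. MTOR and IGF1R are well studied targets of miR-99 and miR-100, miR-125 is homologous to lin-4, the first miRNA described in the nematode, and let-7 miRNAs promote differentiation in many tissues.

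The mature sequences, taken from RefSeq (rat build GRCr8), are shown because the seed separates the families and the rest of the strand is what an array probe has to tell apart. Capitals mark the seed. Of the 5 miRNAs, 4 had an entry.

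rno-miR-99b-5p: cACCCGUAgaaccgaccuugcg
rno-miR-100-5p: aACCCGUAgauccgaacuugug
rno-miR-125a-5p: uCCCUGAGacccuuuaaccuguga
rno-miR-125b-5p: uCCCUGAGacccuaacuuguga
rno-let-7a-5p: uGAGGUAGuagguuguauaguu
rno-let-7c-5p: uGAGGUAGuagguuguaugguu
rno-let-7e-5p: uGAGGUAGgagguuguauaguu

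miR-99b-5p and miR-100-5p shared the seed ACCCGUA and differed by 4 edits (single-base changes, insertions or deletions) over the mature strand. miR-125a-5p and miR-125b-5p shared the seed CCCUGAG and differed by 3 edits. Each family thus carried a seed of its own, and the let-7 partners carried GAGGUAG. let-7a-5p and let-7c-5p differed by 1 edit, as did let-7a-5p and let-7e-5p. Hybridization of such close relatives to each other's probes was not tested here. In GRCr8, miR-99b-5p lay at chr1:67350070-67350091, let-7e-5p at chr1:67350243-67350264 and miR-125a-5p at chr1:67350689-67350712, all on the plus strand and all within the gene Spaca6. miR-100-5p lay at chr8:50798307-50798328 and let-7a-5p at chr8:50805219-50805240, on the plus strand within the annotated genes Mir100hgl and Lnc215. The third cluster held let-7c-5p at chr11:29688127-29688148 and miR-125b-5p at chr11:29732588-29732609, on the plus strand within the long non-coding RNA gene LOC103693508, together with the miR-99a gene. miR-125b has another gene, Mir125b1, in the chromosome 8 cluster, and let-7a and let-7c each have a further gene on another chromosome, so the probes for these 3 miRNAs read the sum of their genes. The clusters spanned 696 bases on chromosome 1, 45.3 kb on chromosome 11 and 51.8 kb on chromosome 8.

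Slides, read from the array names, overlapped with the groups in large part. Slide 1 carried Control 1 to Control 4 and slide 3 carried DEX 4 and DEX 5, and slide 2 alone held both groups (Control 5 and DEX 1 to DEX 3). Between 483 and 533 miRNAs were detected per array. DEX 1 was dim: the median signal over the blank spots was 17.3, against 35.4 to 53.5 on the other arrays. The cardiomyocyte miRNAs miR-1-3p, miR-133a-3p, miR-208a-3p and miR-499-5p were detected on all 10 arrays. Their summed signal ranged from 18827 to 27616 in the control group and from 19084 to 28148 in the DEX group. Signals are spot intensities above the blank spots, scaled so that the median detected miRNA of each array was 25, in arbitrary units. Levels are set only against the same probe on other arrays, because probes differ in how strongly they bind.

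All 5 miRNAs of the families were readily detected in the left ventricle, and none differed between the control group and the DEX group beyond the spread between rats. In limma, 0 of the 5 passed an adjusted p of 0.05, and 0 of 503 tested miRNAs did so (0% of those tested). At an unadjusted p of 0.05 the count was 0 of 5, against 15 of 503 (2.98%). No member differed by 1.5-fold or more, a size reached by 3.58% of the tested miRNAs. All 5 had a fitted log2 difference (DEX minus control) above 0, a sign shared by 59.2% of the tested miRNAs, and their median was 0.15 against 0.04 over all tested miRNAs. Without Control 3 the median of the 5 was 0.013, against -0.009 over all tested miRNAs. Over the 10 fits that each left out 1 array, the median of the 5 lay between 0.01 and 0.21. That of all tested miRNAs lay between -0.02 and 0.09. The methods' t-test at 1.5-fold and its p threshold called 8 tested miRNAs, of which 0 were members, and 0 after Benjamini-Hochberg adjustment.

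In the miR-99/100 family, the signal of miR-99a-5p was 719, 758, 518, 588 and 837 in Control 1 to Control 5 and 1046, 727, 663, 702 and 854 in DEX 1 to DEX 5. The dim array DEX 1 was the highest of the 10, Control 3 was the lowest, and the groups overlapped. The control mean was 684 ± 129 (SD, n = 5) and the DEX mean 798 ± 156 (SD, n = 5). The log2 difference was 0.22 with an SE of 0.18 (limma adjusted p = 0.906), a 1.17-fold change with a 95% interval of 0.896 to 1.52.

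miR-100-5p behaved much like miR-99a-5p from array to array. Its signal was 699.7, 694, 486, 575 and 783 in Control 1 to Control 5 and 875, 712, 596, 611 and 792 in DEX 1 to DEX 5. DEX 1 was again highest and Control 3 lowest. The means were 648 ± 117 (SD, n = 5) and 717 ± 119 (SD, n = 5), with a log2 difference of 0.15 and an SE of 0.17 (limma adjusted p = 0.906). The 95% interval of the fold change was 0.861 to 1.43.

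miR-99b-5p, the member of this family from the short chromosome 1 cluster, gave 175, 171, 125.9, 165 and 178 in Control 1 to Control 5. On DEX 1 its spot had been marked as bad by the scanner software and was left missing, and DEX 2 to DEX 5 gave 163, 145, 157 and 216. Control 3 was the lowest array and DEX 5 the highest, and the remaining DEX arrays all lay below the control median. The means were 163 ± 21.3 (SD, n = 5) and 170.2 ± 31.2 (SD, n = 4). The log2 difference, fitted on 9 arrays, was 0.06 with an SE of 0.17 (limma adjusted p = 0.945), and the 95% interval of the fold change was 0.804 to 1.34.

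In the miR-125 family, miR-125a-5p gave 569.6, 580.4, 371, 451 and 629 in Control 1 to Control 5 and 517, 482, 446, 475 and 681 in DEX 1 to DEX 5. DEX 5 was the highest array, Control 3 the lowest, and 1 of 5 DEX arrays exceeded the control median. The control mean was 520.2 ± 106 (SD, n = 5) and the DEX mean 520.2 ± 93.4 (SD, n = 5). The log2 difference of 0.01 had an SE of 0.18 (limma adjusted p = 0.986), and the 95% interval ran from 0.769-fold to 1.32-fold.

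miR-125b-5p, which shares its seed with miR-125a-5p, gave 1815, 1852, 1065, 1589.7 and 1862 in Control 1 to Control 5 and 2060.2, 1805, 1736, 1363 and 2102 in DEX 1 to DEX 5. Control 3 was the lowest array, and 2 of 5 DEX arrays lay above the highest control array. The means were 1637 ± 338 (SD, n = 5) and 1813 ± 297 (SD, n = 5). The log2 difference was 0.16 with an SE of 0.19 (limma adjusted p = 0.906), and the 95% interval of the fold change was 0.844 to 1.48. The intervals of all 5 miRNAs thus included 1, and their outer limits were 0.769-fold and 1.52-fold.

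**Figure D1:**
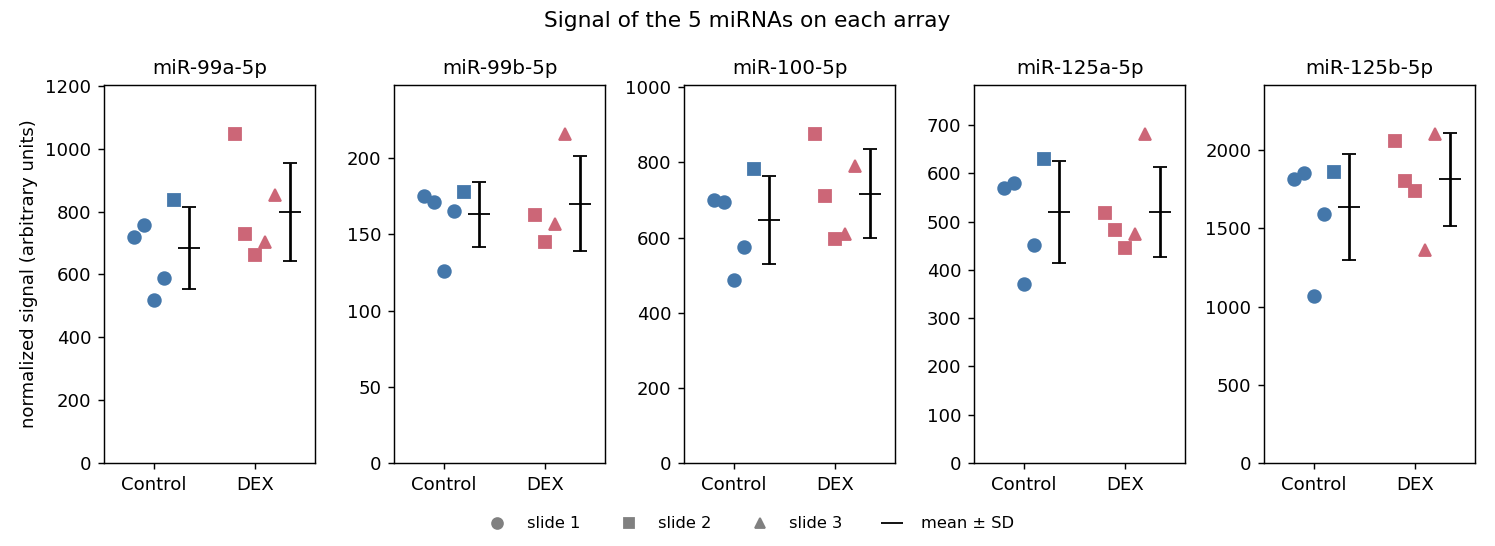
Normalized signal (y axis, arbitrary units, from 0) of each of the 5 miRNAs on each array in the control and DEX groups (x axis), with replicates 1 to 5 from left to right, marker shape for the slide, and the mean with its SD in black. The groups overlap for every miRNA, and Control 3 is the lowest array for every miRNA.

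These small differences changed sign in the fit with slide as a fixed term. With slide as a random block they stayed above 0, at 0.25 (miR-99a-5p), 0.07 (miR-99b-5p), 0.17 (miR-100-5p), 0.03 (miR-125a-5p) and 0.18 (miR-125b-5p). The estimated correlation within slides was only -0.06, so that fit stayed close to the fit without slide. Slide 2 held 1 control and 3 DEX arrays (2 for miR-99b-5p, whose DEX 1 spot was missing), so the value within it rests on the single array Control 5, and that rat and the slide cannot be told apart. Within it, and with slide as a fixed term, which gave the same values, the log2 difference was -0.07 for miR-99a-5p, -0.21 for miR-99b-5p, -0.12 for miR-100-5p, -0.39 for miR-125a-5p and -0.00013 for miR-125b-5p. All 5 signs were thus turned, beside a median of -0.19 over all tested miRNAs in the same fit, and the lowest adjusted p among the 5 was 0.898. Without scaling between arrays the median of all tested miRNAs moved to -0.16, and miR-100-5p, miR-125a-5p and miR-125b-5p fell below 0 with it. In the fit with scaling and without slide, log2 differences were also set against the median of all tested miRNAs. Relative to it, miR-99a-5p stood at 0.18, miR-100-5p at 0.11, miR-125b-5p at 0.12, miR-99b-5p at 0.01 and miR-125a-5p at -0.03. With slide as a fixed term these relative values were 0.11, 0.06, 0.19, -0.02 and -0.20, in the same order.

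**Figure D2:**
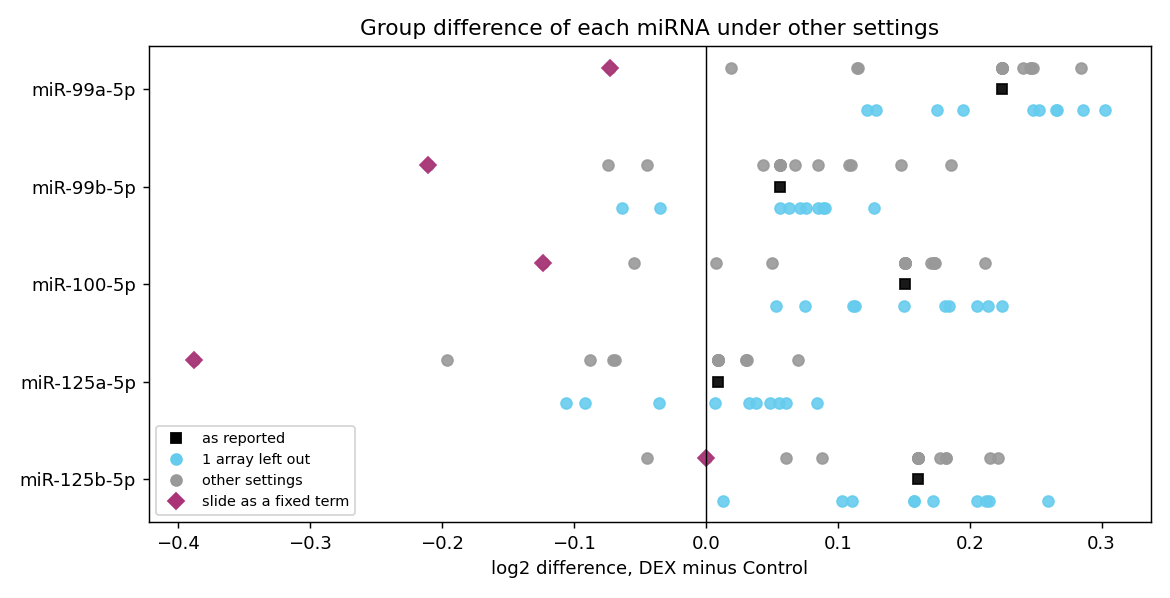
Log2 difference (DEX minus control, x axis) of each of the 5 miRNAs (y axis) as reported, with 1 array left out, with slide as a fixed term and under the other settings. The background correction with the scanner's background column is not drawn. Its values lie off this scale for miR-99a-5p (1.32), miR-100-5p (1.70) and miR-125b-5p (2.54), and were 0.06 for miR-99b-5p and 0.11 for miR-125a-5p. With slide as a fixed term all 5 values lie at or below 0, from -0.39 to -0.00013.

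The let-7 partners of the clusters, which carry the GAGGUAG seed, did not pass the test either. let-7a-5p, encoded beside miR-100, averaged 2595 ± 484 (SD, n = 5) in control rats and 2923 ± 502 (SD, n = 5) in DEX rats, a log2 difference of 0.18 (limma adjusted p = 0.906). let-7c-5p, encoded beside miR-99a, had 2197 ± 437 and 2288 ± 350 (SD, n = 5 each), a log2 difference of 0.07 (limma adjusted p = 0.930). let-7e-5p, encoded between miR-99b and miR-125a, had 817 ± 153 and 877 ± 138 (SD, n = 5 each), a log2 difference of 0.11 (limma adjusted p = 0.914).

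The strands from the opposite side of the same precursors, and the 3p strands of the let-7 partners, made a list of 10, of which 8 passed the detection filter. Of these, 4 were higher and 4 lower in the DEX group by the fitted value, with a median log2 difference of -0.07 and 0 past the test. miR-100-3p was detected on 1 DEX array and no control array, and let-7e-3p on none, so neither was tested. miR-125a-3p had 2225 ± 446 in the control group and 2290.4 ± 161 in the DEX group (SD, n = 5 each). miR-99b-3p had a log2 difference of 0.003.

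The 3p strands of the miR-125b and miR-99a precursors gave dim spots. miR-125b-1-3p, from the chromosome 8 cluster, gave 22.9, 37.0, 33.9, 24.6 and 16.0 in Control 1 to Control 5 and 22.5, 23.5, 16.9, 19.4 and 15.8 in DEX 1 to DEX 5. No DEX array exceeded the control median, yet the control array of slide 2, Control 5, was itself as low as the lowest DEX arrays. The log2 difference was -0.41 with an SE of 0.22 (limma adjusted p = 0.906). miR-99a-3p gave 12.3 ± 2.51 in the control group and 14.5 ± 0.905 in the DEX group (SD, n = 5 each), with every DEX array above the control median and a log2 difference of 0.27 (limma adjusted p = 0.906). miR-125b-2-3p had a log2 difference of -0.15, let-7a-2-3p of -0.15 and let-7c-1-3p of -0.52, the last with detection on 4 control and 3 DEX arrays. The let-7c-2-3p probe, which the files share with another let-7 strand, had 0.10. By its name, let-7c-2-3p belongs to the further let-7c gene, which lies on chromosome 7 and outside the clusters.

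Relatives in sequence on the array include miR-10a-5p and miR-10b-5p, which were listed as homologous to miR-99/100 but carry other seeds, and miR-351-5p, which carries the miR-125 seed.

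rno-miR-10a-5p: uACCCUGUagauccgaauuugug
rno-miR-10b-5p: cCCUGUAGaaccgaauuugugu
rno-miR-351-5p: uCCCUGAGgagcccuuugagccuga

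Capitals again mark bases 2 to 8. miR-10a-5p stood 3 edits from miR-100-5p, but 6 from miR-99b-5p and also 6 from miR-125b-5p. miR-10b-5p stood 6 edits from each of miR-99b-5p, miR-100-5p and miR-125b-5p. miR-351-5p stood 6 edits from miR-125a-5p and 9 from miR-125b-5p. On this array CCCUGAG occurred in 3 miRNAs with a RefSeq entry, miR-125a-5p, miR-125b-5p and miR-351-5p, and ACCCGUA in miR-99b-5p and miR-100-5p. miR-10a-5p had a mean signal of 149 ± 35.4 in the control group and 173 ± 48.6 in the DEX group (SD, n = 5 each), miR-10b-5p had 50.6 ± 12.01 and 50.2 ± 6.18, and miR-351-5p had 41.3 ± 5.63 and 45.5 ± 8.90. Their log2 differences were 0.20, 0.01 and 0.13, and 0 of the 3 passed the test (lowest limma adjusted p = 0.906).

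**Figure D3:**
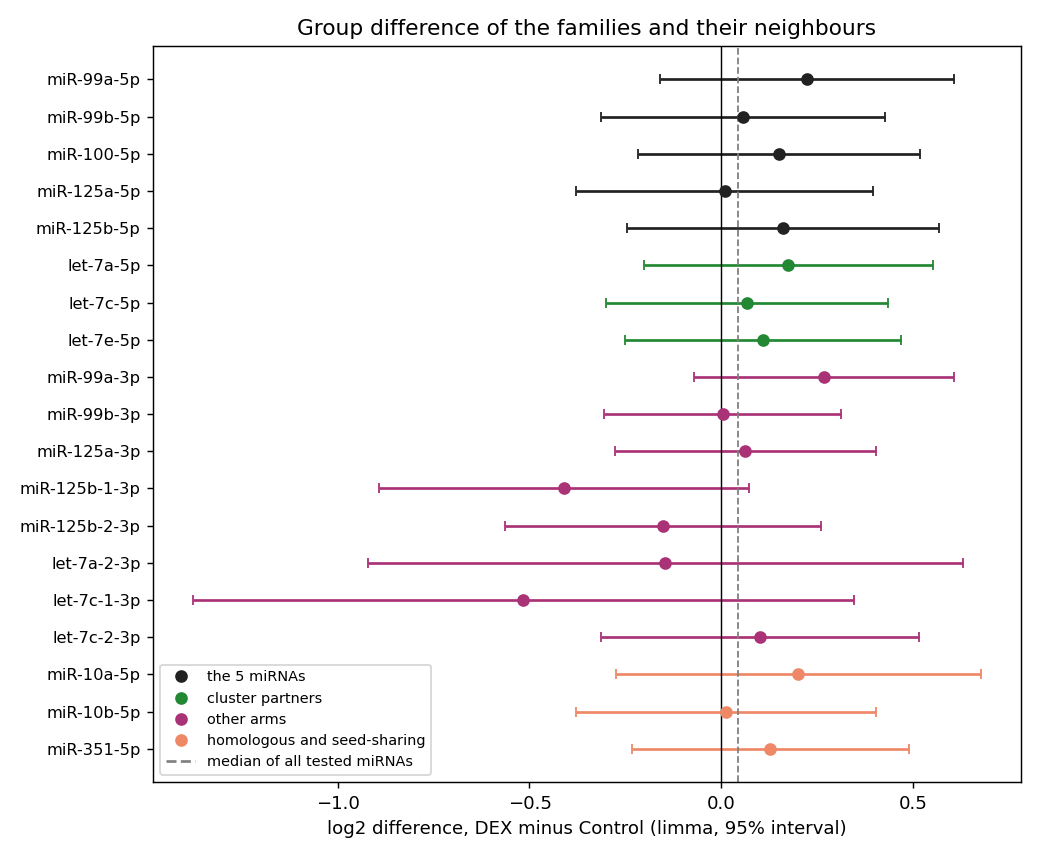
Fitted log2 difference, DEX minus control (x axis), with its 95% interval for the 5 miRNAs of the families, the let-7 cluster partners, the 8 tested other arms and the 3 relatives in sequence (y axis), and the median of all tested miRNAs as a dashed line at 0.04. Every interval includes 0, and the widest intervals are those of let-7c-1-3p, at -0.52, and let-7a-2-3p, at -0.15.

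A ratio of 2 probes on the same array cancels the scaling between arrays, so the change of such ratios was compared for miRNAs of the same cluster. Of 9 ratios, 0 passed an exact permutation test after adjustment over the 9. The smallest p with 5 against 5 arrays is 0.00794. The ratio of miR-99a-5p to let-7c-5p had log2 values of -1.63, -1.61, -1.72, -1.68 and -1.77 in Control 1 to Control 5 and of -1.33, -1.66, -1.57, -1.44 and -1.63 in DEX 1 to DEX 5. All 5 DEX arrays lay above the control median and 3 above the highest control array. Control arrays averaged -1.68 ± 0.07 (SD, n = 5) and DEX arrays -1.53 ± 0.14 (SD, n = 5), which differ by 0.16 (exact two-sided permutation p = 0.0397, adjusted p = 0.357). Of the ratios to let-7c-5p of 500 tested miRNAs without missing values, 24 (4.80%) passed the same unadjusted threshold, as did this 1 of the 9 cluster ratios. DEX 1, the dim array, gave the highest value, and without it the difference was 0.11, while within slide 2, and with slide as a fixed term, it was 0.24. Within slide 2 no p below 0.25 can be had from 3 arrays against 1.

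In the chromosome 8 cluster, miR-100-5p and let-7a-5p kept an almost fixed ratio. The log2 ratio was -2.02, -2.04, -2.04, -1.91 and -1.99 in Control 1 to Control 5 and -2.01, -2.07, -1.98, -2.02 and -2.04 in DEX 1 to DEX 5. The groups overlapped throughout, with means of -2.002 ± 0.054 (SD, n = 5) and -2.025 ± 0.034 (SD, n = 5) and a difference of -0.02 (exact two-sided permutation p = 0.484, adjusted p = 0.847). The pooled SD of this ratio was 0.05, against a pooled SD of 0.26 for the log2 level of miR-100-5p itself. Among the ratios of 500 tested miRNAs to let-7a-5p it was the tightest, where the median SD was 0.31. Tight ratios also occurred between clusters. miR-99a-5p to let-7a-5p ranked 8th (pooled SD 0.08). Among the 500 ratios to let-7c-5p, that of miR-100-5p ranked 16th (pooled SD 0.07). For ratios of these miRNAs to let-7a-5p, 7.20% passed the unadjusted threshold. The 2 sequences are 13 edits apart and have different seeds, and the cause of the tight ratio was not tested.

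The other ratios to a let-7 miRNA of the same cluster were looser, and some were looser than the ratios between clusters given above. miR-99a-5p to its partner let-7c-5p ranked 43rd of 500 (pooled SD 0.11). In the chromosome 1 cluster, whose 3 miRNAs lie within 696 bases, the ratio of miR-125a-5p to let-7e-5p had a pooled SD of 0.09, the 23rd tightest of 500, where the median was 0.29. It was -0.66 ± 0.10 in the control group and -0.76 ± 0.08 in the DEX group (SD, n = 5 each), a difference of -0.10 (exact two-sided permutation p = 0.135, adjusted p = 0.607). The ratio of miR-99b-5p to let-7e-5p differed by -0.03 (exact permutation p = 0.659) and that of miR-99b-5p to miR-125a-5p by 0.05 (exact permutation p = 0.563), each over 9 arrays. Against let-7e-5p, 5.40% of the 500 ratios passed the unadjusted threshold.

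For miR-125b-5p, whose 2 genes lie in different clusters, the ratio to let-7a-5p had a pooled SD of 0.17 and ranked 84th, and the ratio to let-7c-5p had 0.16 and ranked 95th. The differences were -0.01 (exact permutation p = 0.913) and 0.09 (exact permutation p = 0.373), the latter 0.32 within slide 2. miR-99a-5p to miR-125b-5p differed by 0.06 (exact permutation p = 0.587), and miR-100-5p to miR-125b-5p by -0.01 (exact permutation p = 0.913). Within families, the log2 ratio of miR-99a-5p to miR-100-5p differed by 0.07, that of miR-99a-5p to miR-99b-5p by 0.07, that of miR-100-5p to miR-99b-5p by 0.02 and that of miR-125b-5p to miR-125a-5p by 0.15. These were given no test.

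**Figure D4:**
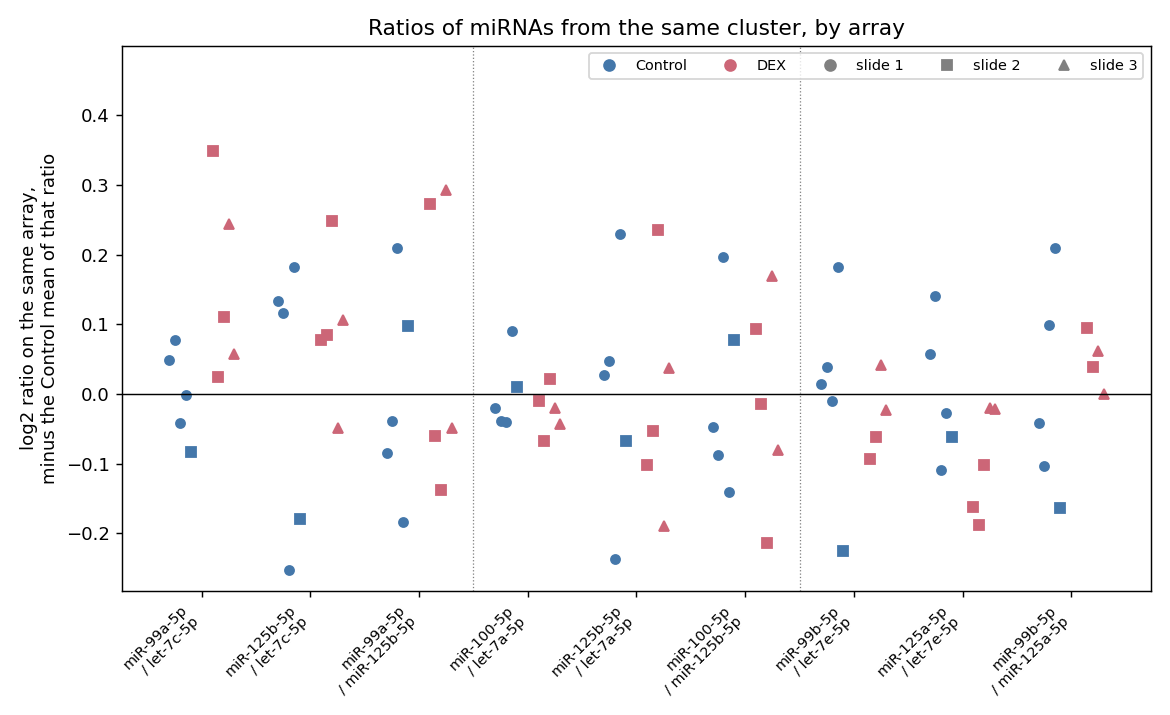
Log2 ratio of each pair of miRNAs from the same cluster on each array, minus the control mean of that ratio (y axis), for the 9 ratios (x axis), with control arrays to the left in blue, DEX arrays to the right in red and marker shape for the slide. Dotted lines separate the clusters of chromosomes 11, 8 and 1. The miR-100-5p to let-7a-5p ratio spreads least, with a pooled SD of 0.05.

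Ratios of 5p to 3p strands were compared in the same way. For miR-99a and miR-125a both strands come from 1 precursor, whereas the miR-125b-5p probe reads the sum of 2 genes and each miR-125b 3p strand comes from 1 of them. The log2 ratio of the 5p to the 3p strand differed by -0.04 for miR-99a (exact permutation p = 0.833) and by -0.05 for miR-125a (exact permutation p = 0.698). The ratio of miR-125b-5p to miR-125b-1-3p was 5.96 ± 0.71 in the control group and 6.53 ± 0.36 in the DEX group (SD, n = 5 each), a difference of 0.57 (exact permutation p = 0.151, adjusted p = 0.492), and within slide 2 the difference was -0.37. The ratio of miR-125b-5p to miR-125b-2-3p differed by 0.31 (exact permutation p = 0.246, adjusted p = 0.492). Of the 4 arm ratios tested, 0 passed after adjustment over the 4. For miR-99b the ratio differed by 0.06 over 9 arrays and was given no test.

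The signals of the 5 miRNAs moved together from array to array, in part through Control 3, the lowest array for each of them: without it, 6 of the 10 pairs had an adjusted permutation p of 0.0739 to 0.120 and passed no longer. The Pearson r of their log2 signals was between 0.72 and 0.97 over the 10 pairs, and Spearman's rho between 0.79 and 0.96. The strongest pair was miR-99a-5p with miR-100-5p (r = 0.97, permutation p = 1e-05, the smallest that 100000 resamples can give, adjusted p = 0.0001, with rho = 0.96, adjusted p = 0.0004). The weakest was miR-99a-5p with miR-125a-5p (r = 0.72, permutation p = 0.0174, adjusted p = 0.0174, with rho = 0.84, adjusted p = 0.00514). miR-99b-5p with miR-125a-5p, which share the short chromosome 1 cluster, had r = 0.93 over 9 arrays (permutation p = 0.00022, adjusted p = 0.000733). Without the 2 arrays farthest from the median, r for miR-99a-5p with miR-100-5p was 0.94, and it was lowest for miR-99b-5p with miR-125b-5p at 0.45, so that relation rested largely on those 2 arrays (Control 3 and DEX 5). The weakest pair, miR-99a-5p with miR-125a-5p, then had r = 0.89 (without DEX 1 and Control 3). miR-100-5p with miR-125a-5p also rose, to 0.90, as did miR-99a-5p with miR-99b-5p, to 0.88, and every other pair fell. Over the 4 arrays of slide 1 alone, which include Control 3, r was 0.86 to 0.998.

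Much of this movement was shared with bright miRNAs at large. The 163 other tested miRNAs that were brighter on average than 2 in 3 of the tested miRNAs and had a value on every array moved in the same way: their median was lowest in Control 3, at 0.35 log2 units under the mean of the arrays, and highest in DEX 5, at 0.28 above it. The r of the 5 miRNAs with this median was 0.79 for miR-99a-5p, 0.85 for miR-100-5p, 0.85 for miR-125a-5p, 0.86 for miR-99b-5p and 0.87 for miR-125b-5p. Once this median was subtracted from each array, 1 of the 10 pairs kept an adjusted p under 0.05: miR-99a-5p with miR-100-5p (r = 0.93, permutation p = 0.00025, adjusted p = 0.0025). These are members of 1 family, and miR-99a-5p had no sequence entry, so its distance in edits from miR-100-5p was not measured. Hybridization of either to the other's probe was not tested. The other 9 pairs had r between 0.24 and 0.66, the highest again for miR-99b-5p with miR-125a-5p (permutation p = 0.0543, adjusted p = 0.192). The SD of miR-99b-5p over the arrays went from 0.21 to 0.11 with this subtraction, and that of miR-99a-5p from 0.28 to 0.18.

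**Figure D5:**
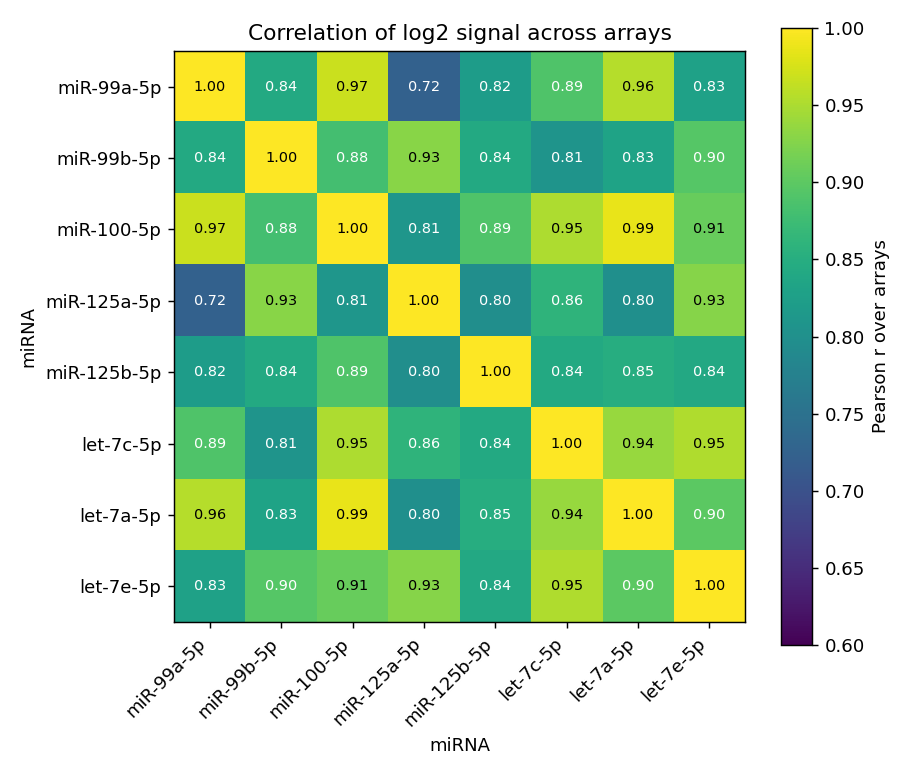
Pearson r of log2 signal across arrays (colour and number) between the 5 miRNAs of the families and the 3 let-7 partners (both axes), over 10 arrays, or 9 for pairs with miR-99b-5p. The highest value is miR-100-5p with let-7a-5p at 0.99, and the lowest is miR-99a-5p with miR-125a-5p at 0.72.

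As a description, with no test, the 3 tested miRNAs most like each member across the arrays were found by Pearson r. For miR-100-5p they were its cluster partner let-7a-5p (r = 0.99), miR-152-3p (0.98) and miR-106b-5p (0.98). For miR-99a-5p they were miR-30c-5p (r = 0.99), miR-100-5p (0.97) and miR-10a-5p (0.96). Its own cluster partner let-7c-5p ranked 31st of 502 (r = 0.89) and miR-125b-5p 77th (r = 0.82).

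For miR-125a-5p the most alike were miR-497-5p (r = 0.97), miR-324-3p (0.93) and its cluster partner miR-99b-5p (0.93), with let-7e-5p ranked 4th. For miR-99b-5p they were miR-193a-3p (r = 0.97), miR-30b-5p (0.96) and miR-93-5p (0.95) over 9 arrays, with miR-125a-5p 5th and let-7e-5p 16th of 501. For miR-125b-5p they were miR-199a-3p (r = 0.94), miR-27b-3p (0.93) and miR-34a-5p (0.92), with miR-100-5p 11th, let-7a-5p 31st and let-7c-5p 35th. The background to these ranks was high: the median r of a member with all other tested miRNAs lay between 0.38 and 0.52, and between 6 (miR-125b-5p) and 46 (miR-100-5p) other miRNAs exceeded 0.9.

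Marker miRNAs of other cells in the ventricle were read on the same arrays. In whole tissue, fewer cells of a type and less RNA per cell cannot be told apart. The red cell miRNAs miR-451-5p, miR-144-3p and miR-486, detected on every array, had a median log2 difference of -0.59. They did not move alike: miR-451-5p had -0.59, miR-144-3p -0.75 and miR-486 0.02. Their summed signal was 564 to 1028 in the control group and 349 to 1004 in the DEX group. The medians were 0.25 for 4 leukocyte, 0.07 for 2 endothelial, 0.10 for 2 smooth muscle and 0.17 for 4 fibroblast miRNAs, and 0 of these 15 passed the test (lowest limma adjusted p = 0.906). Their part in the values of the 5 miRNAs was not tested.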

How the data were processed

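Left ventricular RNA of 10 rats was labelled with Cy5 and hybridized to a rat miRNA chip. Per the file headers, the deposited scanner output gives the linear spot intensity (a median over pixels) and that of the surroundings at 635 nm, merged from 3 gains, before any background removal. The authors also deposited a table of processed scores, rounded to whole numbers and, per the methods, normalized globally to a median of 25. The scanner software's version and the release of miRBase were not given in the sources used here. The labels name an RNeasy kit and the methods an miRNeasy kit.

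Each spot was reduced by the blank spots' mean (5% trimmed at both ends), arrays were scaled to a median of 25 over their own detected miRNAs, values not detected were replaced by the array's lowest detected one (3.64 to 5.09), spots marked as bad were left missing, and log2 was taken. A miRNA was detected where the table of scores had a value. The scanner's background column was not subtracted, because it rose with the spot (correlation on the log scale 0.953 to 0.984 by array) and exceeded the miR-125b-5p spot on 5 of 10 arrays. limma 3.58.1 (R 4.3.3), two-sided and with Benjamini-Hochberg adjustment over all, was fitted to the 503 miRNAs found on 5 or more arrays. The code was tested on simulated data. Ratios were tested by exact two-sided permutation and correlations with 100000 permutations. Sequences are from RefSeq, in which 690 of 765 array names were found. The named miRNAs were the 5 members, all miRNAs of the cluster partner, other arm and sequence relative lists, the 3 most like each member, and the tissue markers. The members, the lists and the tests were chosen with earlier results of these data known. Groups were taken from the sample labels, and the number of arrays limits the precision. Alternatives covered background, scaling, the score table, the filter, the model, slide, replicate number as a block, and leaving out each array. Plots used matplotlib 3.10.9 (Python 3.11.15).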

Additional observations from a re-analysis of the deposited data

Results flagged for a closer look

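A lone extreme value was found in 3 of 74 groups of 4 or 5 arrays examined, where chance gives about 1 in 20, or 3.7. For miR-99b-5p in the control group, Control 3 stood apart at a log2 signal of 6.98 against 7.37 to 7.48 on the other arrays, and the gap was 0.784 of the range (critical value 0.710). For miR-125b-5p in the control group, Control 3 was at 10.06 against 10.63 to 10.86, a gap of 0.717 of the range. For the ratio of miR-99a-5p to miR-99b-5p in the DEX group, DEX 5 was at 1.99 against 2.16 to 2.19, a gap of 0.833 of the range (critical value 0.829, 4 arrays).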

How the results depend on the processing

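None of the 5 miRNAs passed an adjusted p of 0.05 under any of the 25 settings that gave a test. All log2 differences here are DEX minus control, and the cause of each change of sign was not tested. With slide as a fixed term, or within slide 2, they were -0.073 (miR-99a-5p), -0.211 (miR-99b-5p), -0.123 (miR-100-5p), -0.388 (miR-125a-5p) and -0.000134 (miR-125b-5p). Without scaling they were -0.054 (miR-100-5p), -0.196 (miR-125a-5p) and -0.045 (miR-125b-5p). With quantile normalization they were -0.044 (miR-99b-5p) and -0.070 (miR-125a-5p), without slide 3 -0.074 (miR-99b-5p) and -0.088 (miR-125a-5p), and with no background removed -0.069 (miR-125a-5p). Leaving out 1 array gave -0.064 to 0.127 for miR-99b-5p (below 0 without Control 3 or DEX 5) and -0.106 to 0.085 for miR-125a-5p (below 0 without Control 3, Control 4 or DEX 5). The median over the 5 was -0.123 with slide fixed. For the other 3 miRNAs it gave 0.122 to 0.303 (miR-99a-5p), 0.053 to 0.225 (miR-100-5p) and 0.013 to 0.259 (miR-125b-5p).

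With normexp on the scanner's background column the median over the 5 was 1.32 (all tested miRNAs, -0.02), with unadjusted limma p of 0.0269 for miR-99a-5p and 0.0232 for miR-100-5p and no adjusted call. The log2 ratios were then 3.94 (miR-125b-5p to let-7c-5p), 2.72 (miR-99a-5p to let-7c-5p), -1.22 (miR-99a-5p to miR-125b-5p), 0.701 (miR-100-5p to let-7a-5p), 1.54 (miR-125b-5p to let-7a-5p), 0.060 (miR-125a-5p to let-7e-5p), -0.306 (miR-99b-5p to miR-125a-5p), 1.36 (miR-99a-5p to its 3p arm) and 0.494 (miR-125a-5p to its 3p arm). With slide fixed, or within slide 2, they were 0.244 (miR-99a-5p to let-7c-5p), 0.317 (miR-125b-5p to let-7c-5p), -0.073 (miR-99a-5p to miR-125b-5p), 0.094 (miR-125b-5p to let-7a-5p), 0.147 (miR-99b-5p to let-7e-5p) and -0.372 (miR-125b-5p to miR-125b-1-3p). Quantile normalization gave 0.030 (miR-125b-5p to let-7a-5p) and -0.0046 (miR-99b-5p to miR-125a-5p). The ratio of miR-99a-5p to its 3p arm was 0.070 with no background removed and 0.0093 from the score table. Leaving out 1 array gave -0.077 to 0.043 (miR-125b-5p to let-7a-5p), -0.054 to 0.042 (miR-100-5p to miR-125b-5p), -0.090 to 0.012 (miR-99b-5p to let-7e-5p), -0.123 to 0.020 (miR-99a arms), -0.151 to 0.023 (miR-125a arms) and 0.109 to 0.190 (miR-99a-5p to let-7c-5p).

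Correlations relative to the bright median, a setting chosen after seeing the data, were 0.306 (miR-99a-5p with miR-99b-5p), 0.237 (miR-99a-5p with miR-125a-5p), 0.503 (miR-99a-5p with miR-125b-5p), 0.455 (miR-99b-5p with miR-100-5p), 0.665 (miR-99b-5p with miR-125a-5p), 0.307 (miR-99b-5p with miR-125b-5p), 0.370 (miR-100-5p with miR-125a-5p), 0.619 (miR-100-5p with miR-125b-5p) and 0.326 (miR-125a-5p with miR-125b-5p). Without Control 3, 6 pairs no longer had an adjusted p under 0.05 (0.0739 to 0.120). Leaving out 1 array gave r of 0.698 to 0.926 (miR-99a-5p with miR-99b-5p), 0.557 to 0.933 (miR-99a-5p with miR-125a-5p), 0.702 to 0.861 (miR-99a-5p with miR-125b-5p), 0.680 to 0.922 (miR-99b-5p with miR-125b-5p), 0.681 to 0.940 (miR-100-5p with miR-125a-5p) and 0.638 to 0.840 (miR-125a-5p with miR-125b-5p).

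The count of tested miRNAs at an unadjusted p under 0.05 was 15 as reported and 7 with no background removed, 31 with the median taken over miRNAs detected on every array, 32 with quantile normalization, 26 with spike scaling, 26 from the score table, 24 with slide as a fixed term, 24 with slide as a random block and 35 with the replicate block. Leaving out 1 array gave 16 to 36 (36 without Control 5, 24 without Control 1 and 25 without DEX 3). Taken over all tested miRNAs, same-numbered arrays did not deviate together (correlations of -0.080 to 0.105). The replicate block still lowered the SE of the 5 miRNAs. It went from 0.177 to 0.122 (miR-99a-5p), 0.169 to 0.126 (miR-99b-5p), 0.170 to 0.102 (miR-100-5p), 0.179 to 0.115 (miR-125a-5p) and 0.187 to 0.148 (miR-125b-5p). The block changed no call of the 5, and whether the numbers pair rats was not tested further. The fit with slide as a fixed term rests on 1 control array, and DEX 1 was dim.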
